A study of Mus musculus with 6 samples.

Results

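Tip cell genes are expressed at the leading edge of growing blood vessels, and 10 of them were followed here: Esm1, Pdgfb, Plaur, Adm, Kcne3, Igfbp3, Lxn, Trp53i11, Fscn1 and Ednrb. They were chosen by name, out of 24421 rows of gene symbols, and all 10 were found and passed the expression filter of at least 1 FPKM in at least 3 libraries. RNA sequencing had been carried out on retinal endothelial cell preparations from C57BL/6 mouse pups at postnatal day 7. Mutant pups carried Anxa3 fl/fl with Tie2-Cre (3 libraries), and control pups, titled WT in the labels, carried Anxa3 fl/fl alone (3 libraries). Both groups share the floxed alleles. Tie2-Cre is a recombinase driven by the promoter of the endothelial receptor Tie2, which is also active in blood-lineage cells, and since the mutants alone carry it, an effect of Cre and one of Anxa3 loss cannot be told apart. How many pups went into a library is not stated, so the p-values here reflect library-to-library spread alone, which may be technical. Expression is given as FPKM, which divides the fragments of a gene by its length and by a depth factor of its library. Levels of different genes can thus be set side by side.

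A new vessel grows behind a tip cell, which extends filopodia towards the growth factor VEGF and opens the way through the matrix, while the stalk cells behind it divide and form the tube. VEGF raises the Notch ligand Dll4 in the tip cell, and Notch signalling in the neighbours holds back their own tip programme. At the end of the first postnatal week the mouse retina still has a sprouting front at the edge of its superficial plexus, which is why it is widely used to study tip cells.

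Anxa3, the targeted gene, measured 9.78, 12.5 and 15.1 FPKM in mutant replicates 1, 2 and 3, against 18.7, 17.7 and 43.4 FPKM in control replicates 1, 2 and 3. The groups did not overlap, transcripts remained in the mutants, and the two-sided exact permutation p was 0.1, the smallest that 20 arrangements allow. Between 21385892 and 30903825 reads could be recovered per library, and 13332 to 13695 genes reached 1 FPKM. Pan-endothelial markers (20 genes such as Pecam1 and Cdh5) were present in every library, at a mean level of 5.01 to 5.38 in the mutants and 4.91 to 6.04 in the controls on the log2(FPKM + 1) scale. Control replicate 3 stood apart, at 6.04 against 5.04 and 4.91 in control replicates 1 and 2. Rod and cone markers were higher still, at 7.02 to 7.42 in the mutants and 6.79 to 7.27 in the controls, so the preparations held much RNA of other retinal cells. In such bulk samples fewer cells of a type and less RNA per cell cannot be told apart.

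No tip cell gene passed the test between mutant and control libraries. In the limma fit over 13622 genes, 0 of the 10 passed at an adjusted p under 0.05, where 0% of all genes passed, and 0 of the 10 had an unadjusted p under 0.05, where 1.21% of all genes did. Limma voom on the recovered reads likewise called 0 of them, and 0 had an unadjusted p under 0.05 there. The mutant and control values overlapped for all 10 genes, where 4.35% of all genes tested had groups that did not overlap and 1.56% lay lower in all mutants than in all controls. The intervals of the differences were wide, however: their lower ends ran down to -1.03 for Pdgfb and their upper ends up to 0.67 for Plaur, so these libraries do not show that the genes were equal.

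**Figure D1:**
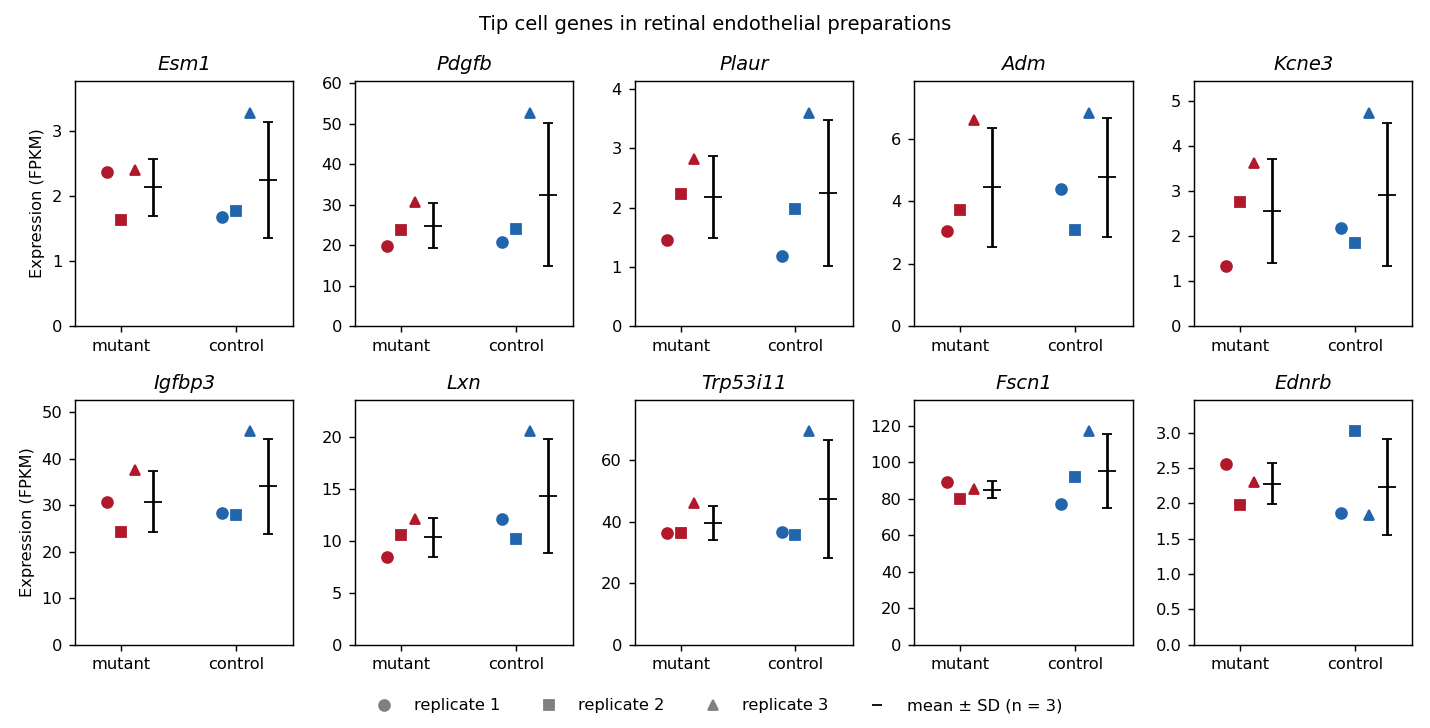
FPKM of each tip cell gene in the 3 mutant (left, red) and 3 control (right, blue) libraries, with circles, squares and triangles for replicates 1, 2 and 3 and the mean ± SD in black; each panel has its own axis from 0. Control replicate 3 (blue triangle) is the highest library for 9 of the 10 genes, and Ednrb is the exception.

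Among the secreted factors, Esm1 and Pdgfb are the genes most often used to mark tip cells. Esm1 encodes endocan, a secreted proteoglycan that VEGF induces (chromosome 13, 113209659 to 113218098, plus strand of GRCm38, the mouse assembly also called mm10). It was among the least abundant of the 10, at 2.37, 1.62 and 2.39 FPKM in mutant replicates 1, 2 and 3, against 1.68, 1.77 and 3.27 FPKM in control replicates 1, 2 and 3. Mutant replicates 1 and 3 thus lay between control replicate 3 and the other controls, and from 90 to 178 reads lay behind each value. The means were 2.13 ± 0.441 FPKM in mutants and 2.24 ± 0.893 FPKM in controls (SD, n = 3 each), with a log2 difference of -0.03 and a limma adjusted p of 1.

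Pdgfb encodes platelet-derived growth factor B, with which tip cells recruit pericytes (chromosome 15, 79995874 to 80014977, minus strand). It measured 19.8, 23.7 and 30.8 FPKM in mutant replicates 1, 2 and 3, against 20.7, 24.0 and 52.7 FPKM in control replicates 1, 2 and 3. Only control replicate 3 lay above all mutant libraries. The means were 24.8 ± 5.56 FPKM in mutants and 32.5 ± 17.6 FPKM in controls (SD, n = 3 each), with a log2 difference of -0.28 (limma adjusted p = 1). Without control replicate 3 that difference was 0.12.

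Adm encodes adrenomedullin, a peptide that acts on endothelial cells (chromosome 7, 110627661 to 110629820, plus strand). It reached 3.03, 3.70 and 6.61 FPKM in mutant replicates 1, 2 and 3, against 4.39, 3.08 and 6.82 FPKM in control replicates 1, 2 and 3. Replicate 3 was the highest library in both groups, and the others ran from 3.03 to 4.39 FPKM. The means were 4.44 ± 1.91 FPKM in mutants and 4.76 ± 1.90 FPKM in controls (SD, n = 3 each; log2 difference -0.09, limma adjusted p = 1).

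Igfbp3 encodes a secreted protein that binds insulin-like growth factors (chromosome 11, 7206086 to 7213923, minus strand). Its values were 30.6, 24.3 and 37.5 FPKM in mutant replicates 1, 2 and 3, against 28.4, 28.0 and 45.9 FPKM in control replicates 1, 2 and 3. The mutant range lay inside that of the controls except for mutant replicate 2, the lowest of all. The means were 30.8 ± 6.62 FPKM in mutants and 34.1 ± 10.2 FPKM in controls (SD, n = 3 each; log2 difference -0.13, limma adjusted p = 1).

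Receptors and a channel subunit made up the next group, all at low levels. Plaur encodes the receptor of urokinase, a protease that activates plasminogen at the cell surface (chromosome 7, 24462484 to 24475968, plus strand). It measured 1.46, 2.23 and 2.83 FPKM in mutant replicates 1, 2 and 3, against 1.18, 1.98 and 3.60 FPKM in control replicates 1, 2 and 3. The control values enclosed those of the mutants. The log2 difference was 0.01 (limma adjusted p = 1), and 43 to 130 reads lay behind the values. Plaur is also known from myeloid cells. The level of 14 microglia and macrophage markers was 1.76, 2.34 and 2.57 in mutant replicates 1, 2 and 3 and 2.48, 2.45 and 2.19 in control replicates 1, 2 and 3 (log2 scale). Plaur itself was lowest in control replicate 1 and highest in control replicate 3. The part of myeloid RNA in the Plaur values was not tested.

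Kcne3, an accessory subunit of voltage-gated potassium channels (chromosome 7, 100176502 to 100184869, plus strand), had the widest ratio of highest to lowest FPKM among the 10. It reached 1.33, 2.75 and 3.62 FPKM in mutant replicates 1, 2 and 3, against 2.17, 1.85 and 4.74 FPKM in control replicates 1, 2 and 3. The highest library held 3.58 times the lowest, which was mutant replicate 1 with 48 reads. The log2 difference was -0.12 (limma adjusted p = 1), and without mutant replicate 1 it was 0.16.

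Ednrb encodes the endothelin B receptor, which glial cells and neurons also express (chromosome 14, 103814625 to 103844402, minus strand). It measured 2.56, 1.98 and 2.30 FPKM in mutant replicates 1, 2 and 3, against 1.86, 3.02 and 1.83 FPKM in control replicates 1, 2 and 3. It was the one gene of the 10 that was highest in control replicate 2 and lowest in control replicate 3, the library with the most endothelial marker RNA. The level of 12 Muller glia and astrocyte markers was 4.38, 4.14 and 4.33 in mutant replicates 1, 2 and 3 and 4.27, 4.38 and 4.17 in control replicates 1, 2 and 3 (log2 scale), highest in mutant replicate 1 and control replicate 2, the libraries with the most Ednrb. The astrocyte markers Aqp4 and Pax2 were under the expression filter, and the part of glial RNA in the Ednrb values was not tested. The Ednrb log2 difference was 0.04 (limma adjusted p = 1).

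Intracellular and membrane proteins included the most abundant of the 10. Fscn1 encodes fascin, which bundles actin in filopodia and which neurons also express (chromosome 5, 142960343 to 142973185, plus strand). It measured 89.2, 79.9 and 85.4 FPKM in mutant replicates 1, 2 and 3, against 77.0, 92.1 and 117 FPKM in control replicates 1, 2 and 3. The mutants lay close together between the control values. The means were 84.9 ± 4.67 FPKM in mutants and 95.5 ± 20.3 FPKM in controls (SD, n = 3 each; log2 difference -0.15, limma adjusted p = 1).

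Trp53i11, first described as a gene that p53 induces (chromosome 2, 93187548 to 93201759, plus strand), measured 36.4, 36.2 and 46.0 FPKM in mutant replicates 1, 2 and 3, against 36.5, 35.6 and 69.3 FPKM in control replicates 1, 2 and 3. Replicates 1 and 2 of both groups were within 1 FPKM of each other. The log2 difference was -0.19 (limma adjusted p = 1), and without control replicate 3 it was 0.12.

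Lxn encodes latexin, an inhibitor of carboxypeptidase A (chromosome 3, 67457998 to 67463926, minus strand), and had the largest difference of the 10. It measured 8.43, 10.5 and 12.1 FPKM in mutant replicates 1, 2 and 3, against 12.1, 10.2 and 20.5 FPKM in control replicates 1, 2 and 3. The lowest mutant library lay below all controls and control replicate 3 above all mutants, with the other libraries intermixed. The means were 10.3 ± 1.84 FPKM in mutants and 14.3 ± 5.48 FPKM in controls (SD, n = 3 each). The log2 difference was -0.39 with a standard error of 0.241, a 95% interval from -0.94 to 0.17, an unadjusted p of 0.15 and a limma adjusted p of 1. It was negative without any one library, from -0.58 to -0.11, and -0.11 was the value without control replicate 3. Lxn lies within the gene Gfm1 on the other strand and shares 63 exonic bases with it, and the use of strand in counting is not given, so reads of the pair may be mixed. Gfm1 itself was even, at 20.2 ± 0.490 FPKM in mutants and 19.8 ± 0.351 FPKM in controls (SD, n = 3 each).

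By mean level over the 6 libraries the order was Fscn1 (90.2 FPKM), Trp53i11 (43.4), Igfbp3 (32.5), Pdgfb (28.6), Lxn (12.3), Adm (4.6), Kcne3 (2.74), Ednrb (2.26), Plaur (2.21) and Esm1 (2.18 FPKM). The step below Fscn1 and the step below Lxn were the ones at which the ranges of neighbours did not overlap. Within each library Trp53i11 lay above Igfbp3, Pdgfb above Lxn, and Adm above Kcne3, in 6 of 6 libraries. Igfbp3 lay above Pdgfb in 5 of 6 libraries, Kcne3 above Ednrb in 4, Ednrb above Plaur in 3 and Plaur above Esm1 in 4, so the order of the 4 least abundant genes was not stable. Fscn1 stood at the 97.3 percentile of mean FPKM among the genes tested and Esm1 at the 10.5 percentile.

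**Figure D2:**
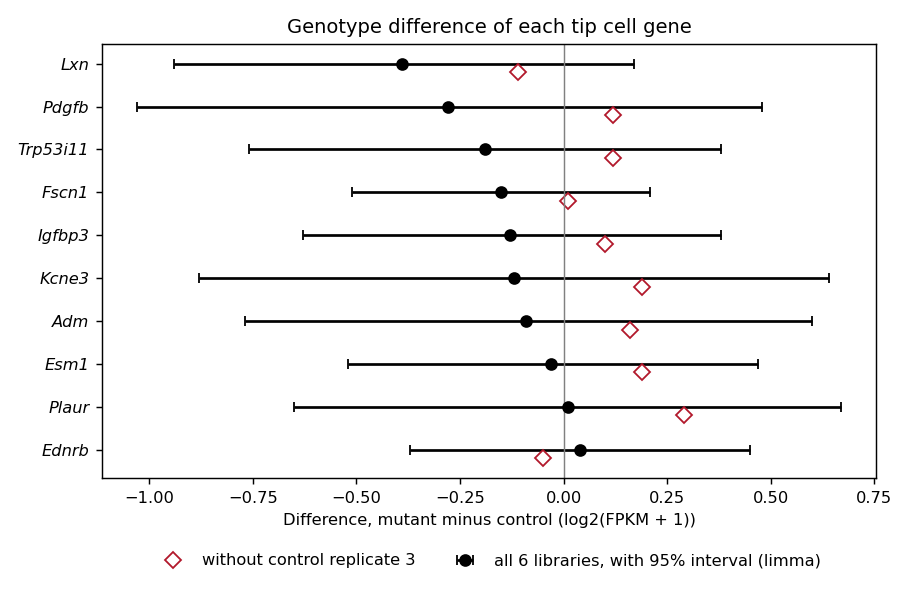
Difference between mutant and control libraries for each tip cell gene on the log2(FPKM + 1) scale, with the 95% interval of the limma fit (black), and the same difference without control replicate 3 (open red diamonds). All intervals cover 0, and without that library 8 of the 10 differences are positive where 8 of 10 are negative with it.

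The direction of the differences rested on 1 control library. With all 6 libraries 8 of the 10 genes had a negative log2 difference, against 52.5% of all genes tested, and the median was -0.12, against -0.01 for all genes. Without control replicate 3, 2 of the 10 were negative and 8 positive, against 50.5% negative and 49.5% positive among all genes, and the median was 0.12. No member passed the test either way. The labels also letter the libraries, with mutant replicate 1 and control replicates 1 and 2 lettered B, A and C, and mutant replicates 2 and 3 and control replicate 3 lettered E, F and D (their meaning is not stated). Within A to C 5 of the 10 genes were lower in the mutant library, with differences from -0.37 to 0.31, and within D to F 9 of the 10 were lower, from -0.94 to 0.15. Neither set has more than 2 libraries of a genotype, and none was tested alone. With the letter set as a block in the fit, 3 of the 10 genes had an unadjusted p under 0.05, where 927 of all 13622 genes did. All 3 were lower in mutants: Lxn (log2 difference -0.59, limma adjusted p = 0.718), Pdgfb (-0.55, limma adjusted p = 0.718) and Kcne3 (-0.42, limma adjusted p = 0.718). After adjustment 0 genes passed.

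Most of the 10 genes shared their highest library. Control replicate 3 was the highest of the 6 libraries for 9 of the 10, against 24.4% of all genes tested. Relative to its own mean over the 6 libraries, a tip cell gene stood on average 0.53 higher in control replicate 3 and 0.18 higher in mutant replicate 3 on the log2 scale. The averages were -0.23 and -0.15 in mutant replicates 1 and 2, and -0.20 and -0.14 in control replicates 1 and 2. Several genes had the opposite sign to these averages in a library. Ednrb was at -0.19 in control replicate 3, 0.31 in control replicate 2 and 0.14 in mutant replicate 1. Fscn1 was at -0.06 in mutant replicate 3 and 0.04 in control replicate 2. The others were Esm1 (0.10 in mutant replicate 1), Plaur and Kcne3 (0.05 and 0.07 in mutant replicate 2) and Lxn (0.03 in control replicate 1). Pan-endothelial markers deviated in the same sense, by 0.79 in control replicate 3 and 0.13 in mutant replicate 3, by -0.24 and -0.12 in mutant replicates 1 and 2, and by -0.21 and -0.34 in control replicates 1 and 2. Of the 20 pan-endothelial markers 20 were highest in control replicate 3, and of 16 photoreceptor markers 0 were. Pericyte and smooth muscle markers were also highest there for 11 of 12, at a mean level of 3.09, 2.94 and 3.08 in mutant replicates 1, 2 and 3 and 2.76, 2.75 and 3.48 in control replicates 1, 2 and 3 (log2 scale), and the part of such RNA in the values of the 10 genes was not tested.

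**Figure D3:**
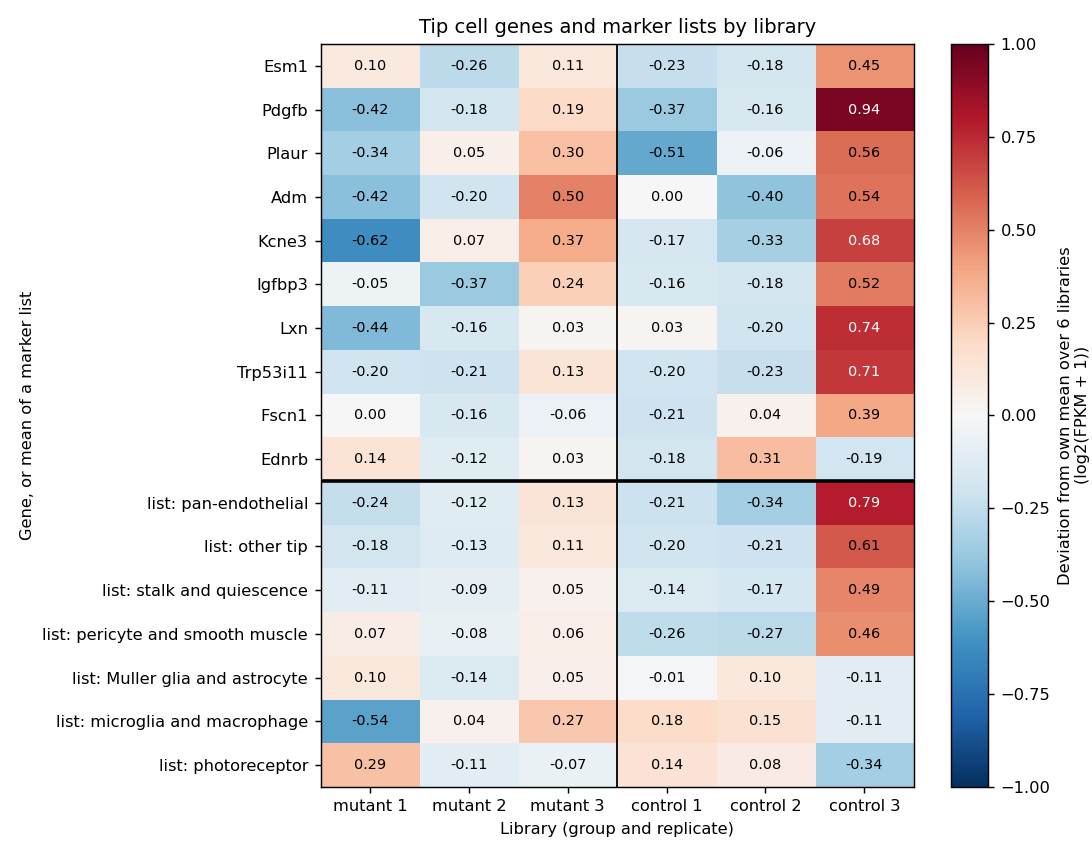
Deviation of each tip cell gene (above the line) and of the mean of each marker list (below it) from its own mean over the 6 libraries, in log2(FPKM + 1) units, with mutant libraries left and control libraries right. Pdgfb deviates most, by 0.94 in control replicate 3, and Ednrb is at -0.19 there while the photoreceptor list is lower.

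Promoters are shown for Esm1, a widely used tip cell marker, Lxn, the gene with the largest difference, and Ednrb, the gene that departed from the rest. They are RefSeq sequences of build GRCm38.p6, from 250 bases before to 50 bases after the start, read 5′ to 3′ on the strand of the gene. Capitals mark AGGAAG (a motif of ETS factors, which act throughout endothelial gene control) and ACGTG (the core of hypoxia response elements), on either strand.
Esm1 (chr13:113209409-113209708, plus strand): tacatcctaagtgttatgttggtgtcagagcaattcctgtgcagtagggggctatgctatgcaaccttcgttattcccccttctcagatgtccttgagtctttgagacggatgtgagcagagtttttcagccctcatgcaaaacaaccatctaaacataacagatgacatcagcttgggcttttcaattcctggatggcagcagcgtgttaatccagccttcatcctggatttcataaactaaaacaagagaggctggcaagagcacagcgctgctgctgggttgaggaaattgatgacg
Lxn (chr3:67463858-67464157, minus strand): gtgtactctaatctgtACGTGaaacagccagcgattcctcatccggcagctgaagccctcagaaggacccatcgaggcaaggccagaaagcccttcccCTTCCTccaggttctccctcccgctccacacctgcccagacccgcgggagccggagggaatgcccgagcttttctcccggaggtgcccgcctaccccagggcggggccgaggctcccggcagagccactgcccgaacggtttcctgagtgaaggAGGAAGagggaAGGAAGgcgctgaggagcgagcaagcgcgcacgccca
Ednrb (chr14:103843652-103843951, minus strand): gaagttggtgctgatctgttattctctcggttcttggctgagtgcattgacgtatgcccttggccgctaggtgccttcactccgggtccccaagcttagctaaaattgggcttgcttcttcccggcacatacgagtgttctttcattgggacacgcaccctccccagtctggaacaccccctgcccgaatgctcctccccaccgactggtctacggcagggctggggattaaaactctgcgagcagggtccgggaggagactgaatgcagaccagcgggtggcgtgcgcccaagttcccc
The Lxn window holds AGGAAG or its reverse complement 3 times and ACGTG 1 time, and the other windows hold neither motif. RefSeq gave 10 promoters for 9 of the 10 genes. AGGAAG lay in 4 of these 10 promoters, those of 3 genes (Kcne3, Lxn and Plaur), against 35.4% of all 32851 promoters. ACGTG lay in 2 (Kcne3 and Lxn), against 19.6% of all. CGGAAG, another ETS motif, lay in 1 (Trp53i11), against 16.9% of all. TGACTCA, the AP-1 motif, lay in 1 (Plaur), against 5.20% of all, and GTGGGAA, a motif of the Notch factor RBPJ, in 0, against 6.38% of all.

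Set against the pan-endothelial mean of the same library, the groups overlapped for all 10 tip cell genes with the pseudocount of 1. With 3 libraries against 3 the two-sided exact permutation p cannot go below 0.1, so no gene could pass at 0.05, and these values do not show that the genes were equal. For the 10 genes it ran from 0.2 to 1, and all were 1 after Benjamini-Hochberg adjustment over the 10. Lxn gave the smallest. It lay at -1.77, -1.61 and -1.67 in mutant replicates 1, 2 and 3 and at -1.33, -1.42 and -1.61 in control replicates 1, 2 and 3, a difference of -0.23 on the log2 scale (exact permutation p = 0.2). The Lxn groups met only at mutant replicate 2 and control replicate 3, both at -1.61. With a pseudocount of 0.1 the Lxn difference was -0.25, and the exact permutation p was 0.1, the smallest possible. For comparison, Anxa3 lay at -1.58, -1.37 and -1.37 in the mutants and at -0.74, -0.68 and -0.57 in the controls, a difference of -0.78 with groups that did not overlap.

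Taking each level relative to the endothelial mean also changed how much the genes varied. For Trp53i11 the SD over the 6 libraries was 0.07 relative to the endothelial mean, against 0.37 for the level itself. For Pdgfb it was 0.16, against 0.51, for Kcne3 0.22, against 0.48, and for Lxn 0.16, against 0.40. Fscn1 and Ednrb went the other way, with an SD of 0.29, against 0.21, for Fscn1 and 0.56, against 0.20, for Ednrb. Relative to the endothelial mean, Ednrb lay at -3.17, -3.55 and -3.66 in mutant replicates 1, 2 and 3 and at -3.53, -2.90 and -4.54 in control replicates 1, 2 and 3, the lowest value being that of control replicate 3. These SDs are descriptions over 6 libraries and carry no test.

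**Figure D4:**
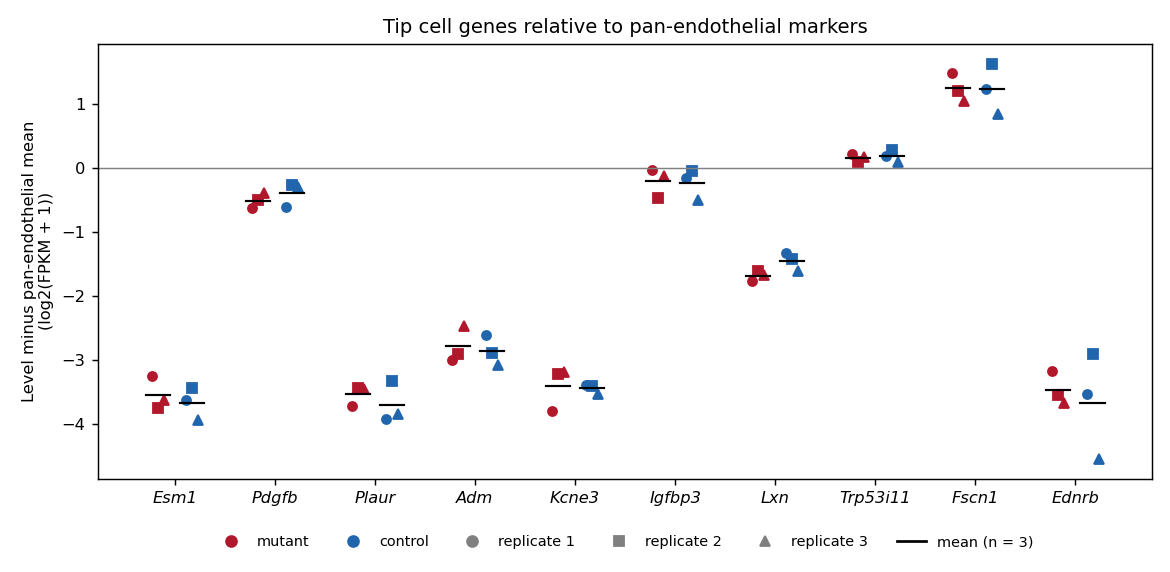
Level of each tip cell gene minus the pan-endothelial mean of its library, on the log2(FPKM + 1) scale, for mutant (red, left of each pair) and control (blue, right) libraries, with circles, squares and triangles for replicates 1, 2 and 3 and lines for the means. The groups overlap for all 10 genes; Trp53i11 is the tightest (SD 0.07 over 6 libraries) and Ednrb the widest (SD 0.56).

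The ligands and receptors that pair with the tip cell genes gave no call either. Pdgfrb, the PDGF-B receptor of pericytes, measured 28.4, 23.2 and 27.0 FPKM in mutant replicates 1, 2 and 3, against 18.4, 20.1 and 43.5 FPKM in control replicates 1, 2 and 3, while Pdgfra, the receptor of retinal astrocytes, averaged 8.80 ± 0.650 FPKM in mutants and 7.55 ± 0.545 FPKM in controls (SD, n = 3 each). The Pdgfra groups did not overlap, but its log2 difference of 0.20 did not pass (limma adjusted p = 1). Plau, which encodes urokinase, the ligand of the Plaur product, averaged 0.990 ± 0.383 FPKM in mutants and 1.18 ± 0.236 FPKM in controls. Vtn, whose product vitronectin binds the urokinase receptor, averaged 23.1 ± 4.6 FPKM in mutants and 23.4 ± 3.80 FPKM in controls (SD, n = 3 each).

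Adrenomedullin signals through Calcrl with Ramp2 or Ramp3. Calcrl averaged 5.87 ± 0.369 FPKM in mutants and 7.73 ± 2.53 FPKM in controls, Ramp2 52.4 ± 11.2 FPKM in mutants and 58.4 ± 23.2 FPKM in controls, and Ramp3 6.54 ± 1.09 FPKM in mutants and 5.73 ± 0.848 FPKM in controls (SD, n = 3 each). Without control replicate 3 the log2 difference was -0.08 for Calcrl, against -0.31 with it, and 0.20 for Ramp2, against -0.11 with it. Ramp2 was the more abundant partner in every library. Of the endothelins, Edn1 averaged 2.44 ± 0.175 FPKM in mutants and 2.52 ± 1.11 FPKM in controls, and Edn2 and Edn3 lay under 0.1 FPKM in all 6 libraries. Ednra, the other endothelin receptor, averaged 8.50 ± 0.721 FPKM in mutants and 9.24 ± 3.78 FPKM in controls, above Ednrb in every library. Igf1 averaged 2.73 ± 0.482 FPKM in mutants and 2.65 ± 0.354 FPKM in controls and its receptor Igf1r 49.0 ± 4.98 FPKM in mutants and 51.9 ± 1.72 FPKM in controls. Kcnq1, a channel that Kcne3 can modify, averaged 3.91 ± 0.233 FPKM in mutants and 4.80 ± 2.42 FPKM in controls (SD, n = 3 each). Of 34 partner and family genes 24 were tested, 0 passed and 0 had an unadjusted p under 0.05, 16 with a negative and 8 with a positive difference and a median of -0.05. Among all genes tested 52.5% were negative. Without control replicate 3 the partner list had 9 negative and 15 positive differences and a median of 0.08.

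Further genes of the tip and stalk programmes gave no call. Of 25 further tip cell genes, all tested, 0 passed (limma, adjusted p under 0.05) and 0 had an unadjusted p under 0.05. Their median log2 difference was -0.14, with 23 negative and 2 positive; without control replicate 3 it was 0.17, with 3 negative and 22 positive. The smallest unadjusted p values in the list belonged to Cxcr4, a chemokine receptor, Gja1, a gap junction protein, and the VEGF and semaphorin co-receptors Nrp1 and Nrp2. Cxcr4 measured 10.3, 12.1 and 12.8 FPKM in mutant replicates 1, 2 and 3, against 13.5, 12.8 and 19.8 FPKM in control replicates 1, 2 and 3, with a log2 difference of -0.34, an unadjusted p of 0.0791 and a limma adjusted p of 1. Without control replicate 3 the Cxcr4 difference was -0.15. Its groups did not overlap, mutant replicate 3 and control replicate 2 being nearly equal. Gja1 averaged 12.2 ± 0.887 FPKM in mutants and 15.3 ± 4.72 FPKM in controls, and Nrp2 9.70 ± 1.62 FPKM in mutants and 11.7 ± 3.69 FPKM in controls (SD, n = 3 each); without control replicate 3 their log2 differences were -0.04 and 0.00, against -0.27 and -0.22 with it.

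Of 18 genes of stalk cells and quiet vessels 0 passed, and 0 had an unadjusted p under 0.05. Their median was -0.11 with 16 negative, and without control replicate 3 it was 0.09 with 16 positive. Jag1, the Notch ligand of stalk cells, averaged 22.9 ± 0.921 FPKM in mutants and 25.7 ± 5.88 FPKM in controls, Hey1, a Notch target, 6.06 ± 0.463 FPKM in mutants and 6.84 ± 1.59 FPKM in controls, and Nrarp, another Notch target, 19.9 ± 2.80 FPKM in mutants and 22.9 ± 7.13 FPKM in controls (SD, n = 3 each). The tip list shares 1 gene and the stalk list 3 genes with the pan-endothelial list. Tip and stalk genes thus had medians of the same sign in both settings, and no test of the difference between the lists was made.

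Genes induced by low oxygen were looked at because Adm is a known hypoxia target. Of 12 such genes 11 were tested, 0 passed and 0 had an unadjusted p under 0.05, with a median log2 difference of 0.00, 5 negative and 6 positive. Pdk1, a pyruvate dehydrogenase kinase, averaged 6.45 ± 0.438 FPKM in mutants and 7.82 ± 0.384 FPKM in controls (SD, n = 3 each), with groups that did not overlap and a limma adjusted p of 1. Ankrd37 averaged 15.8 ± 3.99 FPKM in mutants and 13.2 ± 1.69 FPKM in controls, Egln3, an oxygen-sensing hydroxylase, 1.75 ± 0.466 FPKM in mutants and 1.36 ± 0.134 FPKM in controls, and Pfkfb3, a regulator of glycolysis that tip cells depend on, 8.4 ± 2.29 FPKM in mutants and 10 ± 2.64 FPKM in controls (SD, n = 3 each).

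The genes with the profile most like the mean of the 10 over the 6 libraries, by root mean square difference of centred log2(FPKM + 1) values, were Lrp10 (0.030), Acsf2 (0.034), Syt12 (0.038), Igfbp4 (0.040) and Rps6ka1 (0.043). For Esm1 alone they were Loxl2 (0.034), Plat (0.054), Anxa5 (0.060), Tmbim1 (0.060) and Mfng (0.064). Igfbp4, another binding protein of insulin-like growth factors, measured 44.0, 45.1 and 57.4 FPKM in mutant replicates 1, 2 and 3, against 43.4, 48.1 and 78.5 FPKM in control replicates 1, 2 and 3. Loxl2, which encodes a matrix enzyme, measured 5.83, 4.20 and 5.64 FPKM in mutant replicates 1, 2 and 3, against 4.6, 4.49 and 7.80 FPKM in control replicates 1, 2 and 3. Likeness over 6 libraries of mixed tissue is a description and carries no test.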

How the data were processed

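Total RNA of 6 samples, grouped by labelled genotype, was sequenced. The kit was TruSeq RNA v2, as the labels' protocols state. The authors deposited 1 column of FPKM values for each library. Build mm10 and the tools DESeq2, Cufflinks 2.2.1, STAR 2.5.0b and bedtools 2.17.0 are named, without roles or order, per the submitters' processing notes; annotation, strand setting and filtering are not given in the sources used. A deposited FPKM of 0 can be a failed estimate.

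Two-sided limma tests (version 3.58.1, R 4.3.3; trended prior) were run on log2(FPKM + 1) of the 13622 genes that reached 1 FPKM in 3 or more libraries, with Benjamini-Hochberg adjustment over all of them and a threshold of 0.05. The pseudocount of 1 understates changes of low genes such as Esm1. The fit was tested on simulated data in which genes varied independently. No simulated library shifted many genes together as control replicate 3 did, so the simulation does not show how the fit handles such a library. Single values relative to the pan-endothelial mean were tested with exact permutation tests in scipy 1.17.1. Intervals are 95% limma intervals.

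Depth was recovered from the values. FPKM at miRNA loci times hairpin length is a whole number of reads divided by the depth of the library, and with that depth reads came out whole (tolerance 0.01 reads) for 16491 of 16491 rows above 0 in all libraries. Read numbers are the fewest that fit, so a gene such as Lxn (length found 546 bases) may have a whole multiple of them. That depth exceeded the one from a median of ratios by a factor of 1.0055 in every library, so libraries were scaled relative to each other as by a median of ratios. Libraries of a group differed by more than sampling noise, the lowest chi-square per degree of freedom being 15.4 and the highest 74.9. Voom of limma was run on these reads.

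The 10 genes, the lists and the tests were chosen with earlier results of these data known. Named genes were the 10, Anxa3, the 4 smallest unadjusted p of the further tip, stalk, partner and hypoxia lists, the direct ligands and receptors, and the 5 genes most like the mean profile and Esm1. Of these, Nrp1, Aplnr, Igf2 and Ece1 have their values in the closing section. The values of 1 partner gene are not reported here. Gfm1 was added for its overlap with Lxn, and further family members were added after their values were seen. Alternatives were another pseudocount (0.1), other filters, quantile normalization, blocks, an endothelial covariate, library weights, voom and the omission of each library; total-read scaling was added after the data were seen. Positions are from GENCODE M21. Figures were drawn with matplotlib 3.10.9 in Python 3.11.15.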

Additional observations from a re-analysis of the deposited data

How the results depend on the processing

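No tip cell gene passed under any alternative run, and the count of all genes called was 0 under each except library weights (145 genes). Anxa3 was lower in mutants throughout, by a log2 difference from -1.15 to -0.53 over single omitted libraries. Of the 10 genes, from 2 (without control replicate 3) to 10 (without control replicate 1) were lower in mutants over single omitted libraries, and 5 of the 5 left with a mean of at least 5 FPKM. Their groups did not overlap for 0 to 1 gene, which was Fscn1 (lower) without control replicate 1 and Ednrb (higher) without control replicate 2. Groups of fewer libraries separate more readily, and the share over all genes was not counted with a library omitted. No result about Fscn1 or Ednrb is drawn from these counts. Of the further tip cell genes 3 to 24 were lower over single omitted libraries, 15 with the endothelial covariate and 9 with library weights. Over single omitted libraries the log2 difference ran from -0.15 to 0.19 for Esm1, -0.53 to 0.12 for Pdgfb, -0.25 to 0.29 for Plaur, -0.35 to 0.16 for Adm, -0.34 to 0.19 for Kcne3, -0.27 to 0.10 for Igfbp3, -0.35 to 0.12 for Trp53i11, -0.29 to 0.01 for Fscn1 and -0.05 to 0.20 for Ednrb. Relative to the pan-endothelial mean it ran from -0.01 to 0.24 for Esm1, -0.09 to 0.19 for Adm, -0.07 to 0.23 for Kcne3, -0.09 to 0.16 for Igfbp3, -0.08 to 0.02 for Trp53i11, -0.19 to 0.20 for Fscn1 and -0.25 to 0.57 for Ednrb. It kept its sign there for Pdgfb (-0.23 to -0.06), Plaur (0.06 to 0.35) and Lxn (-0.31 to -0.17). Signs also turned with the endothelial covariate, for Esm1 (0.06), Adm (0.05), Kcne3 (0.04) and Ednrb (-0.01), with library weights for Adm (0.13), Kcne3 (0.31) and Ednrb (-0.29), with the letter block for Plaur (-0.22), and with a pseudocount of 0.1 for Kcne3 relative to the endothelial mean (-0.01); the cause was not tested. Of the single-gene values under alternatives, 183 kept their sign and 42 turned. With total-read scaling no sign of the 10 turned. Deviations of libraries with the same number correlated at 0.249, -0.151 and 0.391, and those of libraries with different numbers at -0.352 to 0.231. Whether the numbers pair the libraries cannot be told from 3 libraries per group. With the replicate block 0 genes were called, 8 of the 10 were lower, and the Anxa3 difference was -0.93. Negative binomial count tests were not run, since the values are FPKM; voom on the recovered reads called 0 genes. With 43 to 130 reads for Plaur and 48 to 211 for Kcne3, counting error alone is sizeable for the low genes.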

Other observations

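Relatives of the tip cell genes had levels of their own. In the family of insulin-like growth factor binding proteins, Igfbp7 measured 139, 158 and 240 FPKM in mutant replicates 1, 2 and 3, against 143, 139 and 290 FPKM in control replicates 1, 2 and 3, while Igfbp5 averaged 9.19 ± 0.670 FPKM in mutants and 8.45 ± 0.284 FPKM in controls and Igfbp2 averaged 8.82 ± 1.91 FPKM in mutants and 8.93 ± 0.631 FPKM in controls (SD, n = 3 each). Replicate 3 was the highest library of both groups for Igfbp7. Among potassium channel accessory subunits, Kcne2 averaged 6.43 ± 1.5 FPKM in mutants and 6.17 ± 1.95 FPKM in controls, above Kcne3 in 5 of 6 libraries, and Kcne4 averaged 1.32 ± 0.169 FPKM in mutants and 1.86 ± 0.996 FPKM in controls (SD, n = 3 each). Fscn2, a fascin of photoreceptors, averaged 7.16 ± 1.30 FPKM in mutants and 7.22 ± 0.834 FPKM in controls (SD, n = 3 each), and control replicate 3 was the lowest control at 6.27 FPKM, whereas for Fscn1 it was the highest at 117 FPKM. No gene of these families passed the limma test.

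Of the named genes without values so far, Nrp1 averaged 18.9 ± 0.802 FPKM in mutants and 23.1 ± 7.37 FPKM in controls, the apelin receptor Aplnr 57.4 ± 10.1 FPKM in mutants and 78.2 ± 38.8 FPKM in controls, the growth factor Igf2 14.9 ± 1.99 FPKM in mutants and 13.0 ± 2.06 FPKM in controls, and the endothelin-converting enzyme Ece1 45.6 ± 2.58 FPKM in mutants and 53.1 ± 13.3 FPKM in controls (SD, n = 3 each, limma adjusted p = 1 for each). Without control replicate 3 the log2 difference was 0.03 for Aplnr, against -0.35 with it, and -0.00 for Nrp1, against -0.24 with it.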
